A study of Mus musculus with 20 samples.

Results

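Hepatocytes differ along the short path that blood takes through the liver lobule, from the portal tract, where arterial and portal blood enter, to the central vein. Cells near the portal tract (periportal) specialise in amino acid breakdown, urea synthesis and glucose output, and cells near the central vein (pericentral), under Wnt and beta-catenin control, make glutamine and carry most cytochrome P450 drug metabolism. The genes described here are 8 that are commonly used to mark periportal hepatocytes: Cyp2f2, Etnppl, Cdh1, Mfsd2a, Hal, Sds, Gls2 and Hsd17b6. They were listed by symbol with no threshold on their values, but with earlier results of these data known, so the calls and ratio tests below are not independent of that choice. Their 8 rows were read out of a table of 49315 genes.

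The 20 mice had steatohepatitis brought on by diet and obesity (DIO-NASH, the Gubra model), and all were kept on the AMLN diet, which is high in fat, fructose and cholesterol. Of these, 10 were given the vehicle, 1% HEC, and 10 were given S217879 at 30 mg/kg by mouth once a day, in both cases for 8 weeks. S217879 is given in the series title as an agent that disrupts the contact between NRF2, a transcription factor of antioxidant defence, and KEAP1, the adaptor that sends it for degradation. The labels give no strain, sex or age for the mice, no mice on a control diet are analysed here, and each library is the whole liver RNA of 1 separately numbered animal. The p-values measure the spread between these animals.

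Levels are in TPM, in which reads are divided by gene length and scaled so that each library sums to 1000000, and they can be compared between genes. Read depth cannot be recovered from them, and the spread between animals is the only error that can be given. Between 24659 and 27744 genes were above 0 in a library. Vehicle replicates 6 and 7 stood apart: 4 gene models of rRNA type took 58.2% and 50.7% of their TPM, against 14.1% to 38.1% in the other 18 libraries, which lowers every other gene in those 2. For the 8 genes and the lists of other genes, the result without these 2 libraries is therefore given too; values of other single genes are over all 20. Nqo1, a quinone-reducing enzyme that NRF2 switches on, served as the check of the treatment, with 14.6 ± 3.52 TPM in vehicle and 102 ± 13.9 TPM in S217879 livers (SD, n = 10 each), and its groups did not overlap.

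Of the 8 periportal genes, 5 rose with S217879 (Cyp2f2, Etnppl, Hsd17b6, Hal and Sds), 2 fell (Mfsd2a and Cdh1) and Gls2 was not called. The call is an adjusted p under 0.05 in limma on log2(TPM + 0.5), with Benjamini-Hochberg adjustment over the 13401 genes that had a mean of at least 1 TPM, a minimum that 8 of the 8 reached. By the same rule 29.6% of the tested genes were called, 6.07% higher and 23.5% lower. The median log2 difference of the 8 was 0.72, against -0.12 over all tested genes. With median-of-ratios scaling, which removes a scale factor per library, 26.6% of the tested genes were called higher and 27.1% lower (3561 and 3634, against 813 and 3151 as deposited), and the all-gene median moved by 0.11 to -0.01. Under that scaling again 5 of the 8 were called higher and 2 lower, with the same 7 genes in the same directions, and the median was 0.84. Without vehicle replicates 6 and 7, 5.56% of the tested genes were called higher and 54.4% lower, and of the 8 genes 5 were higher and 3 lower. Counts in lists of related genes are given as deposited, with the scaled counts and those without the 2 libraries in brackets, to be read against these shares. In whole liver RNA, fewer cells of a type and less RNA per cell cannot be told apart.

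The starts of these genes differ in base composition. RefSeq promoters (build GRCm38.p6) were matched for 5 of the 8 (Cyp2f2, Etnppl, Mfsd2a, Hal and Hsd17b6), and 3 are shown, upstream of the start site: those of the 2 genes whose groups did not overlap, and that of the matched gene that fell. Capitals mark CG, the pair that makes up CpG islands. Cyp2f2 is shown at chr7:27119705-27119908 (plus strand, up to the GENCODE start), Etnppl at chr3:130617198-130617447 (plus strand) and Mfsd2a at chr4:122961189-122961438 (minus strand).
Cyp2f2: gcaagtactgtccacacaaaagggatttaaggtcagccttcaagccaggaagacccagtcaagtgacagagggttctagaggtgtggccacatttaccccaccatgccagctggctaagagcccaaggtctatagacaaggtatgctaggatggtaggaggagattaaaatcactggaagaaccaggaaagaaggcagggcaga
Etnppl: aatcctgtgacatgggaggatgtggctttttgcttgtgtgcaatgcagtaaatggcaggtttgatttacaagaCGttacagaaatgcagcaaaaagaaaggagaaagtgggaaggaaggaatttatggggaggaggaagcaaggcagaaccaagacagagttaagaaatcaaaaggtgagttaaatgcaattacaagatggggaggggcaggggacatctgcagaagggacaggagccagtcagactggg
Mfsd2a: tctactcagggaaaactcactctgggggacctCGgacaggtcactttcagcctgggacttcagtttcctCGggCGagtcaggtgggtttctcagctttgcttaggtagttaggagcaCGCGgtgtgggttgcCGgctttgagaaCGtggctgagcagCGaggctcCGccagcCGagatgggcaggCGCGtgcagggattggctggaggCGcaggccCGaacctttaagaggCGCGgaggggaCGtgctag
In the 250 bases before the RefSeq start there were 0 CG pairs for Cyp2f2, 1 for Etnppl and 1 for Hsd17b6, against 6 for Hal and 17 for Mfsd2a. Etnppl and Hsd17b6 had 2 RefSeq windows each, and these counts are of 1 of them. The median over 32817 RefSeq promoters was 6, and 7.87% of them had as few as Cyp2f2, 18.8% no more than Etnppl or Hsd17b6, 53.7% no more than Hal and 78.3% no more than Mfsd2a. Mfsd2a, the only matched gene that fell, had the most CG pairs of the 5. Of the 4 that rose, 3 had 0 or 1 and Hal was at the median. No promoter was matched for Cdh1, Sds and Gls2, so these counts cannot relate CG content to the direction of change. Both strands of the windows from 250 bases before to 50 after the start were searched for 4 motifs. The core of the antioxidant response element, TGACNNNGC, which NRF2 binds with small MAF proteins, was in 0 of the 5 and in 12.4% of all promoters. TGACGTCA, the cAMP response element, was in 0 of the 5 (1.79% of all), and CAAAGTCCA, an HNF4A motif, was in 0 of the 5 (0.475% of all). CTTTGAT, bound by the TCF/LEF partners of beta-catenin, was found in the Hal window alone, beginning 199 bases before the start, and in 3.73% of all promoters. A missing match says only that these letters are not in these windows.

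**Figure D1:**
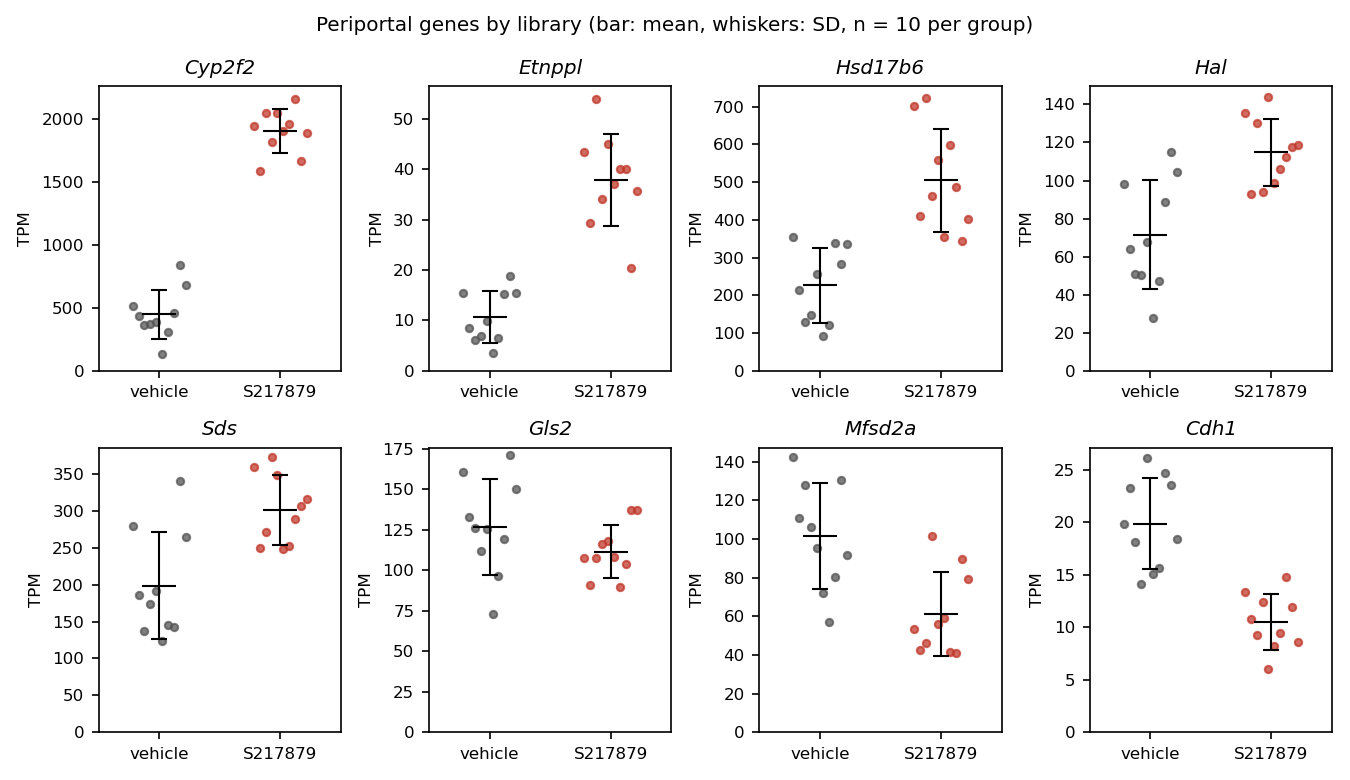
Level in TPM (vertical axes, linear, from 0) of each of the 8 periportal genes in the 10 vehicle and 10 S217879 livers, 1 point per library, with the mean (bar) and SD (whiskers). Cyp2f2 and Etnppl do not overlap between the groups, 9 of 10 S217879 values of Hsd17b6 lie above and 9 of 10 of Cdh1 lie below all vehicle values, and Gls2 overlaps throughout.

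Cyp2f2 is a cytochrome P450 that oxidises naphthalene and other small aromatic compounds, and is a P450 of portal rather than central hepatocytes. It lies on the plus strand of chromosome 7 (GRCm38, chr7:27119909-27133660). In vehicle livers its level ran from 132 through a median of 411 to 837 TPM, and in S217879 livers from 1590.1 through 1927 to 2160.2 TPM. Every S217879 liver was above every vehicle liver; groups without overlap, in either direction, were found for 3.73% of all tested genes. The means were 449.7 ± 196 and 1903 ± 175 TPM, a rise of 2.21 on the log2 scale (SE 0.21) or 4.64-fold (95% confidence interval 3.43 to 6.28, limma, adjusted p = 1.26e-08). Among all genes by mean TPM, Cyp2f2 went from place 187 in vehicle to place 47 in S217879 livers, and its log2 difference was the 42nd highest of the 13401. Without vehicle replicates 6 and 7 the log2 difference was 1.96.

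Relative to its mean, Cyp2f2 spread less in the S217879 group. Its coefficient of variation was 43.5% in vehicle and 9.19% in S217879 livers, and 35.8% and 14.2% after median-of-ratios scaling. The SD of the scaled levels was itself larger with S217879, 283 TPM against 148 TPM in vehicle livers. An antisense gene, Gm15883, overlaps exons of Cyp2f2 on the other strand and had 9.27 ± 2.47 and 19.2 ± 2.27 TPM. The labels do not say whether counting used strand, so reads of the pair may not be fully separated. Cyp2f2 is also a marker of club cells of the lung airway. The other 6 club cell markers summed to 0.398 to 1.31 TPM in vehicle and 0.196 to 2.42 TPM in S217879 livers, and Scgb3a2, a secretoglobin of those cells, was at 0 in all 20 libraries.

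Cyp2f2 sits among other Cyp2 genes on chromosome 7, of which 8 including itself were tested, with 6 higher, 1 lower (scaled 7 and 0, without the 2 libraries 6 and 1) and a median log2 difference of 1.36. Cyp2a4 had 15.3 ± 7.29 and 905 ± 281 TPM, and Cyp2a5, the coumarin hydroxylase, 585 ± 267 and 9436 ± 1730 TPM (limma, adjusted p = 2.44e-13 and 1.12e-11), and neither overlapped between the groups. Cyp2a22 fell by 0.49 on the log2 scale (adjusted p = 0.0485), a call that was lost with median-of-ratios scaling (adjusted p = 0.0794). These family members are similar in sequence, and how reads matching several genes were counted is not given, so their separate values are uncertain.

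The amino acid enzymes among the 8 did not move alike: Hal and Sds rose and Gls2 did not pass the test. Hal, histidine ammonia-lyase (chr10:93488768-93519304, plus strand), opens histidine breakdown by removing its amino group. Its level was 27.7 to 115 TPM in vehicle livers (median 66.0) and 92.8 to 144 TPM in S217879 livers (median 115). The ranges overlapped, with 10 of 10 S217879 livers above the vehicle median and 5 of 10 above the highest vehicle value. The means were 71.5 ± 28.7 and 115 ± 17.6 TPM, a rise of 0.78 on the log2 scale (SE 0.20) or 1.72-fold (interval 1.30 to 2.28, limma, adjusted p = 0.0037). Without vehicle replicates 6 and 7 it was 0.57 (adjusted p = 0.0036). Of 5 tested genes of histidine metabolism, Hal alone was called higher and Hdc, which makes histamine, was called lower (scaled 4 higher and 1 lower, without the 2 libraries 1 and 1), with 5.08 ± 1.15 and 3.27 ± 0.652 TPM. The next 3 enzymes of the breakdown path, Uroc1, Amdhd1 and Ftcd, had log2 differences of 0.23, 0.27 and 0.32 and were not called as deposited but were called higher with median-of-ratios scaling.

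Sds, serine dehydratase (chr5:120476526-120483932, plus strand), turns serine into pyruvate and ammonia for glucose synthesis. Its level was 124 to 339.6 TPM in vehicle livers (median 179.8) and 248 to 373 TPM in S217879 livers (median 297). All 10 S217879 livers were above the vehicle median and 3 were above the highest vehicle liver, replicate 9. The means were 198 ± 72.1 and 301 ± 47.0 TPM, a rise of 0.66 on the log2 scale (SE 0.15) or 1.58-fold (interval 1.28 to 1.96, limma, adjusted p = 8.38e-04), and 0.54 without vehicle replicates 6 and 7 (adjusted p = 0.0055). Exons of Sds are overlapped on the other strand by Plbd2, with 32.0 ± 7.46 and 55.1 ± 5.75 TPM, and by the antisense gene Gm15690, with 15.7 ± 7.65 and 26.4 ± 7.95 TPM, and all 3 were called higher. Of 12 tested genes of serine, threonine and glycine metabolism, 7 were higher and 0 lower (scaled 9 and 0, without the 2 libraries 7 and 1), with a median log2 difference of 0.35. The largest rise among them was that of Gldc, the decarboxylase of the glycine cleavage system, from 56.6 ± 14.3 to 144 ± 15.1 TPM, without overlap between the groups. Gnmt, which methylates glycine, rose from 1048 ± 251 to 1777 ± 326 TPM.

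Gls2, the liver glutaminase (chr10:128194457-128210004, plus strand), frees ammonia from glutamine for urea synthesis beside the portal tract. It had 73.2 to 171 TPM in vehicle livers (median 126) and 89.5 to 137 TPM in S217879 livers (median 108), so the S217879 range lay inside the vehicle range. The means were 127 ± 29.4 and 112 ± 16.3 TPM, and the log2 difference of -0.16 (SE 0.13) had a 95% confidence interval from -0.43 to 0.11 (limma, adjusted p = 0.39). With median-of-ratios scaling it was -0.04 (adjusted p = 0.63). It was called lower without vehicle replicates 6 and 7 (-0.30, adjusted p = 0.0115) and with quantile normalization (-0.24, adjusted p = 0.0024). Of 13 tested genes of glutamine and glutamate metabolism, 0 were higher and 4 lower (scaled 2 and 5, without the 2 libraries 0 and 9). The 2 with the largest falls were Got1, the cytosolic aspartate aminotransferase (114 ± 26.2 to 67.2 ± 18.6 TPM), and Glul, glutamine synthetase, given below. Spryd4 overlaps exons of Gls2 on the other strand and had 24.7 ± 4.47 and 26.2 ± 3.78 TPM.

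The phospholipid genes went in opposite directions. Etnppl, ethanolamine-phosphate phospho-lyase (chr3:130617448-130637521, plus strand), breaks down phosphoethanolamine, a building block of phosphatidylethanolamine. Its level was 3.57 to 18.8 TPM in vehicle livers (median 9.26) and 20.4 to 54.0 TPM in S217879 livers (median 38.5). The groups did not overlap: the lowest S217879 liver, replicate 9, was above the highest vehicle liver, also numbered 9. The means were 10.7 ± 5.19 and 37.9 ± 9.12 TPM, a rise of 1.90 on the log2 scale (SE 0.26) or 3.72-fold (interval 2.56 to 5.41, limma, adjusted p = 1.37e-05), and 1.67 without vehicle replicates 6 and 7. Among 12 tested genes that make or break down ethanolamine phospholipids, 1 was higher, Etnppl, and 3 were lower (scaled 3 and 6, without the 2 libraries 1 and 9). Chka, choline kinase alpha, had 8.23 ± 1.81 and 4.53 ± 1.11 TPM, and Chkb, the beta form, had 19.4 ± 3.72 and 14.4 ± 2.19 TPM.

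Mfsd2a carries lysophospholipids that hold docosahexaenoate, a long omega-3 fatty acid, into cells (chr4:122946850-122961188, minus strand). In vehicle livers it had 57.1 to 142 TPM (median 101) and in S217879 livers 41.2 to 102 TPM (median 54.9). Below the lowest vehicle value were 6 of 10 S217879 livers, 9 were below the vehicle median, and replicate 4, the highest, was just above it. The means were 102 ± 27.3 and 61.1 ± 21.7 TPM, a fall of 0.75 on the log2 scale (SE 0.18, limma, adjusted p = 0.0023) to 0.594 times the vehicle level (interval 0.459 to 0.769). Without vehicle replicates 6 and 7, which include its lowest vehicle value, Mfsd2a fell by 0.90. Of 9 tested genes that handle lysophospholipids or make docosahexaenoate, Mfsd2a included, 0 were higher and 8 lower (scaled 1 and 8, without the 2 libraries 0 and 8), with a median log2 difference of -0.75. Fads1, the delta-5 desaturase, had 409 ± 88.0 and 62.1 ± 40.1 TPM, and Fads2, the delta-6 desaturase, 1407 ± 312 and 405 ± 138 TPM, neither with overlap between the groups.

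Hsd17b6 is a microsomal dehydrogenase that acts on androgens and retinol (chr10:127990936-128007611, minus strand). Its level was 93.1 to 354 TPM in vehicle livers (median 235) and 344 to 723 TPM in S217879 livers (median 476). The groups met at a single point: S217879 replicate 9, the lowest of its group, lay just under vehicle replicate 1, the highest of its group, and the other 9 were above every vehicle liver. The means were 227 ± 99.8 and 504 ± 136 TPM, a rise of 1.25 on the log2 scale (SE 0.25) or 2.38-fold (interval 1.66 to 3.39, limma, adjusted p = 5.65e-04), and 1.01 without vehicle replicates 6 and 7. Of 12 tested retinol and 17-beta-hydroxysteroid dehydrogenases, 3 were higher and 3 lower (scaled 7 and 2, without the 2 libraries 3 and 4), with a median log2 difference of 0.09, or 0.21 scaled. Rdh10, a retinol dehydrogenase, had 16.8 ± 3.45 and 25.3 ± 2.16 TPM and Rdh9, another of that family, 15.4 ± 3.39 and 5.54 ± 1.42 TPM, both without overlap. Genes of this family are similar in sequence, and their separate values are uncertain for the reason given for the Cyp2 genes.

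Cdh1, E-cadherin, joins neighbouring epithelial cells and among hepatocytes is strongest near the portal tract (chr8:106603351-106670246, plus strand). It had 14.1 to 26.1 TPM in vehicle livers (median 19.1) and 6.04 to 14.8 TPM in S217879 livers (median 10.1). Below the lowest vehicle liver were 9 of the 10 S217879 livers, and only replicate 8 reached into the vehicle range. The means were 19.9 ± 4.30 and 10.5 ± 2.65 TPM, a fall of 0.90 on the log2 scale (SE 0.13, limma, adjusted p = 1.85e-06) to 0.536 times the vehicle level (interval 0.444 to 0.647). Without vehicle replicates 6 and 7 it fell by 0.98. Of 10 tested genes of the adherens junction, 0 were higher and 3 lower (scaled 1 and 5, without the 2 libraries 0 and 9). The 3 were Cdh1, Cdh2 and Vcl, the actin linker vinculin, with 15.7 ± 2.08 and 11.6 ± 1.38 TPM.

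Bile duct cells (cholangiocytes) also make E-cadherin. Of 10 cholangiocyte markers 7 were tested, 0 of them higher and 3 lower (scaled 0 and 2, without the 2 libraries 0 and 5). Spp1 fell from 286 ± 68.6 to 144 ± 52.6 TPM and Epcam from 8.30 ± 2.88 to 5.17 ± 1.94 TPM. Krt19, a keratin of these cells, had 4.58 ± 1.29 and 3.79 ± 1.35 TPM and Sox9 6.71 ± 1.41 and 6.32 ± 1.35 TPM, neither called. The 10 markers summed to 190 to 489 TPM in vehicle and 100.2 to 261 TPM in S217879 livers, and none was at 0 in all libraries. Spp1, which macrophages also make, was most of that sum, and the other 9 summed to 23.1 to 52.9 TPM in vehicle and 21.3 to 41.7 TPM in S217879 livers. With group means removed and median-of-ratios scaling, Pearson's r of Cdh1 over the 20 libraries was 0.44 with Sox9 to 0.73 with Krt19, with a median of 0.70 over the 7, and it was above 0.5 for 6 of them. For the other 7 periportal genes the highest such r with any of the 7 markers was 0.24. The part of these cells in the fall of Cdh1 was not tested.

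The order of the 8 genes by mean level shifted with treatment. In vehicle livers it was Cyp2f2, Hsd17b6, Sds, Gls2, Mfsd2a, Hal, Cdh1 and Etnppl, from 449.7 down to 10.7 TPM. The ranges of mean ± 1 SD of neighbours overlapped, except those of Hal and Cdh1. Even so, within each of the 10 vehicle libraries Cyp2f2 was above Hsd17b6, Sds above Gls2, and Cdh1 above Etnppl. In S217879 livers the order was Cyp2f2, Hsd17b6, Sds, Hal, Gls2, Mfsd2a, Etnppl and Cdh1, from 1903 down to 10.5 TPM, and there the only neighbours with overlapping ranges were Hal with Gls2 and Mfsd2a with Etnppl. Etnppl and Cdh1 changed places: Cdh1 was above Etnppl in 10 of 10 vehicle libraries and below it in 10 of 10 S217879 libraries. The summed level of the 8 was 1205 ± 419 TPM in vehicle and 3045 ± 298 TPM in S217879 livers. Cyp2f2 made up 36.3% ± 5.30 of that sum in vehicle and 62.6% ± 2.88 in S217879 livers, while Cdh1 went from 1.78% ± 0.525 to 0.348% ± 0.0913.

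Ratios within a library do not depend on its scale. Sds over Gls2, enzymes of neighbouring pathways, had a mean log2 ratio of 0.60 ± 0.26 in vehicle and 1.43 ± 0.20 in S217879 livers, without overlap. Etnppl over Mfsd2a, the opposed phospholipid genes, had -3.30 ± 0.66 and -0.65 ± 0.74, also without overlap. Some ratios moved little: Hal over Sds was -1.50 ± 0.36 and -1.38 ± 0.24, and Cdh1 over Mfsd2a was -2.30 ± 0.43 and -2.45 ± 0.59.

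To set the portal side against the central side, 4 of the genes were divided by a pericentral gene of related function within each library, and the log2 ratios were compared by a two-sided permutation test (100000 resamples, Benjamini-Hochberg over the 4). Gls2, which splits glutamine, was at 14.1% ± 2.11 of Glul, which makes it, in vehicle and at 20.2% ± 4.64 in S217879 livers. That ratio rose by 0.50 on the log2 scale (p = 2.2e-04, adjusted 2.93e-04), with 7 of 10 S217879 livers above every vehicle liver and all 10 above the vehicle median. Gls2 itself was not called, and Glul fell from 906 ± 198 to 574 ± 134 TPM (limma, adjusted p = 9.41e-04). Sds was at 50.2% ± 16.01 of Oat, the ornithine aminotransferase, in vehicle and at 156% ± 39.1 in S217879 livers, a rise of 1.66 on the log2 scale without overlap (p = 6e-05, adjusted 1.2e-04). There both sides moved, with Oat falling from 409 ± 103 to 203 ± 51.5 TPM.

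Cyp2f2 was at 11.1% ± 3.64 of Cyp2e1, the ethanol-inducible P450 of central hepatocytes, in vehicle and at 46.3% ± 8.53 in S217879 livers, a rise of 2.10 on the log2 scale without overlap (p = 6e-05, adjusted 1.2e-04). Cyp2e1 had 4123 ± 1493 and 4190.2 ± 571 TPM and was not called (limma, adjusted p = 0.68). Cdh1 over Cdh2, N-cadherin, went the other way, from 72.1% ± 12.02 to 54.6% ± 12.96, a fall of 0.40 on the log2 scale (p = 0.0078, adjusted 0.0078), lower than the vehicle median in 9 of 10. Without vehicle replicates 6 and 7 the 4 ratios moved by 0.52 (Gls2/Glul), 1.72 (Sds/Oat), 2.10 (Cyp2f2/Cyp2e1) and -0.36 (Cdh1/Cdh2, adjusted p = 0.0217, permutation test). Both cadherins fell, Cdh2 from 27.8 ± 4.69 to 19.2 ± 1.99 TPM. Cdh1 is also made by cholangiocytes, as said above, and their part in this ratio was not tested. In 3 of these 4 pairs the ratio moved toward the periportal gene, and in the cadherin pair toward the pericentral gene. The direction depends on the partner chosen. Cyp1a2, the only listed pericentral gene called higher, rose by 3.30 on the log2 scale, more than Cyp2f2 with 2.21. The 4 pairs therefore do not stand for the zones as a whole.

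**Figure D2:**
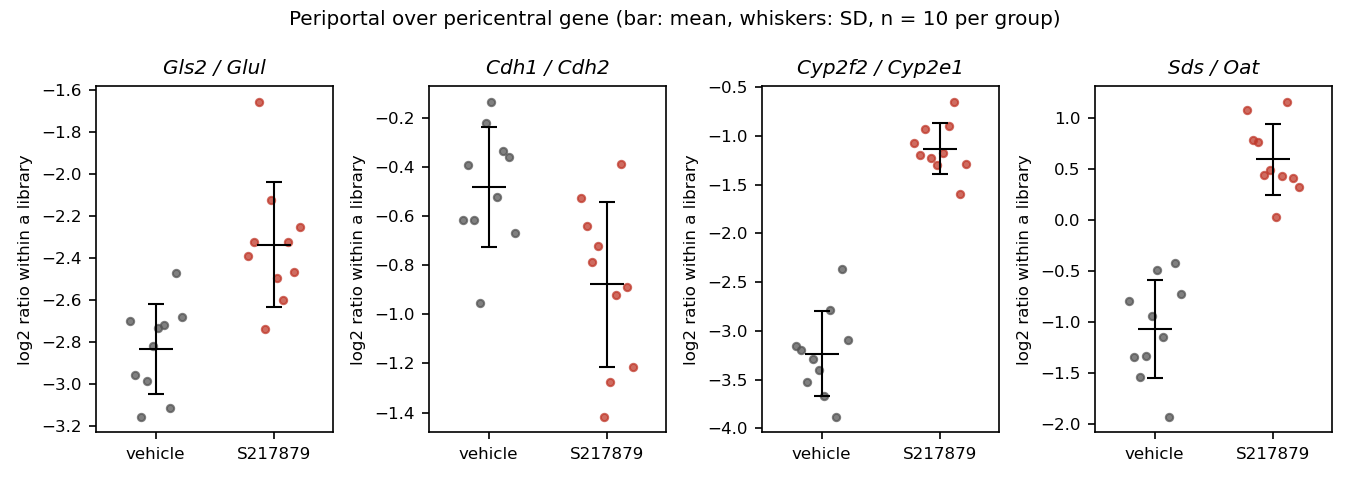
Log2 of the ratio of a periportal to a pericentral gene within each library (vertical axes, each with its own range and not starting at 0) for 4 pairs, 1 point per liver, with the mean (bar) and SD (whiskers) of 10 vehicle and 10 S217879 livers. Cyp2f2/Cyp2e1 and Sds/Oat do not overlap between the groups, Gls2/Glul is higher and Cdh1/Cdh2 lower with overlap.

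Other genes of the zones give the background to these 8. Of 16 other periportal genes, 4 were higher and 2 lower, with a median log2 difference of -0.02, against 0.72 for the 8. Scaled, 7 were higher and 3 lower with a median of 0.10, and without the 2 libraries 3 were higher and 8 lower. Gldc and Arg1, the arginase of the urea cycle (1089 ± 247 to 1685 ± 239 TPM), rose most. Apof, a minor apolipoprotein (408 ± 85.8 to 284 ± 59.5 TPM), and Ass1, which makes argininosuccinate (1569.8 ± 324 to 1166 ± 261 TPM), fell. Pck1 and Cps1, entry enzymes of glucose and urea synthesis, were not called over all 20 libraries, with log2 differences of -0.19 and -0.14, and were called lower without the 2 libraries (-0.36 and -0.30). Of 17 tested pericentral genes 1 was higher and 10 lower (scaled 3 and 10, without the 2 libraries 1 and 13 of 18), with a median of -0.56. The one called higher was Cyp1a2, a P450 under the aryl hydrocarbon receptor, with 149 ± 57.9 and 1411 ± 384 TPM, and the largest fall was that of Avpr1a, a vasopressin receptor, with 4.49 ± 1.08 and 1.43 ± 0.531 TPM. Of 9 tested general hepatocyte genes 2 were higher and 1 lower (scaled 4 and 1, without the 2 libraries 2 and 5). Alb, albumin, had a log2 difference of -0.18 (limma, adjusted p = 0.44), and without the 2 libraries -0.36 (adjusted p = 0.0057).

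**Figure D3:**
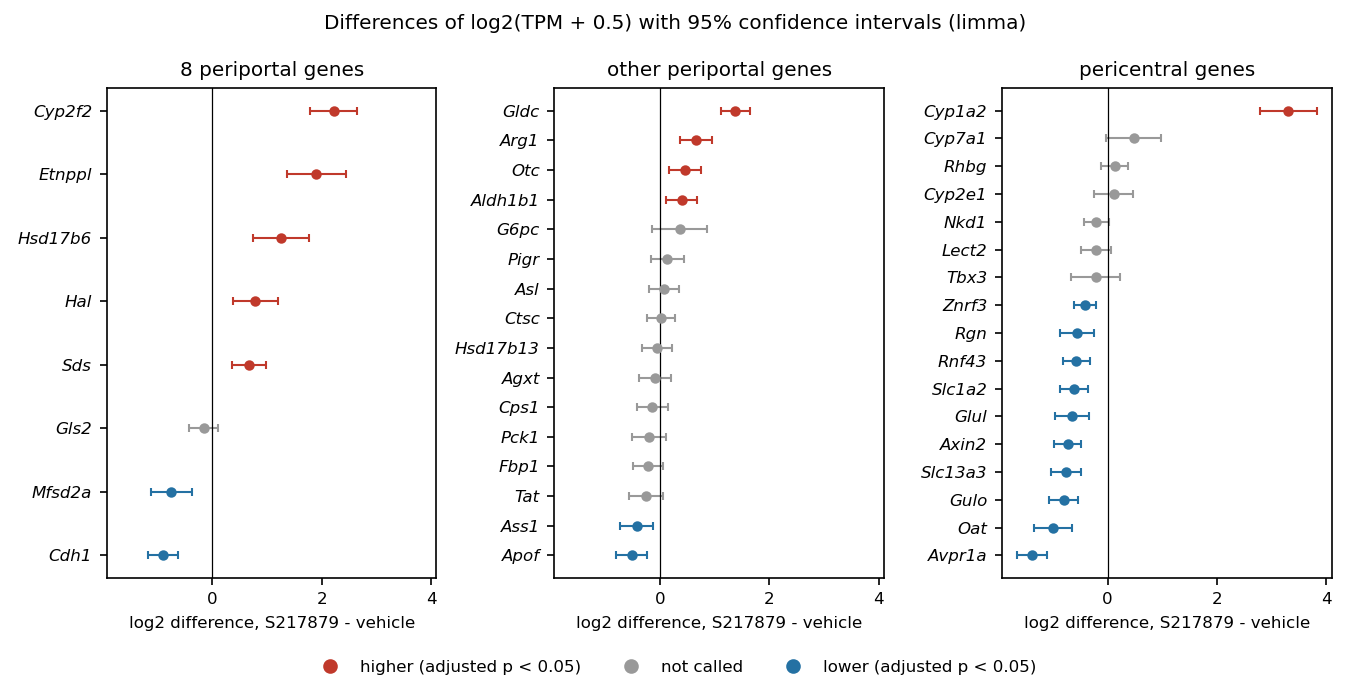
Differences of log2(TPM + 0.5), S217879 minus vehicle (horizontal axes), with 95% confidence intervals from limma (n = 10 each) for the 8 periportal genes, 16 other periportal genes and 17 pericentral genes, coloured by call. The 8 run from 2.21 (Cyp2f2) to -0.90 (Cdh1), 10 of the 16 others are not called, and 10 of the 17 pericentral genes are lower.

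Within the groups, 4 of the genes that rose (Cyp2f2, Etnppl, Hal and Hsd17b6) also varied together from liver to liver. These correlations are over the 20 libraries with group means removed and median-of-ratios scaling, are given as description, and share libraries and their composition. The 4 also went with genes that are not periportal. Their r was 0.61 to 0.77 with the pericentral Cyp1a2 and 0.60 to 0.65 with Alb, but -0.44 to -0.09 with the pericentral Glul. The r with Glul differed by group, from -0.07 to 0.29 over the 10 vehicle and from -0.74 to -0.58 over the 10 S217879 livers. No shares over all pairs of tested genes were computed to set beside the counts that follow. Of the 28 pairs among the 8, 11 had Pearson's r above 0.5 and 10 below 0, with a median of 0.34. The highest was that of Etnppl with Hsd17b6 (r = 0.89, Spearman's rho 0.90, r = 0.91 without the 2 libraries farthest from the median), followed by Etnppl with Hal (r = 0.87, rho 0.88, without 2 libraries 0.94) and Cyp2f2 with Hal (r = 0.84, rho 0.86, without 2 libraries 0.78). Sds and Gls2 stood between, with r = 0.64 together (rho 0.46, without 2 libraries 0.53), 0.86 over the 10 vehicle and 0.21 over the 10 S217879 livers. After scaling Mfsd2a ran against those 4, for instance with Hsd17b6 at r = -0.49 (rho -0.44, without 2 libraries -0.51). Cdh1 with Gls2 had r = -0.37 (rho -0.43, without 2 libraries -0.43). As deposited, with group means removed but no scaling, the lowest r of the 28 pairs was 0.07, that of Mfsd2a with Hsd17b6. There Mfsd2a had 0.30 with Cyp2f2, and Cdh1 had 0.27 with Gls2. The negative r are therefore of the scaled values only.

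**Figure D4:**
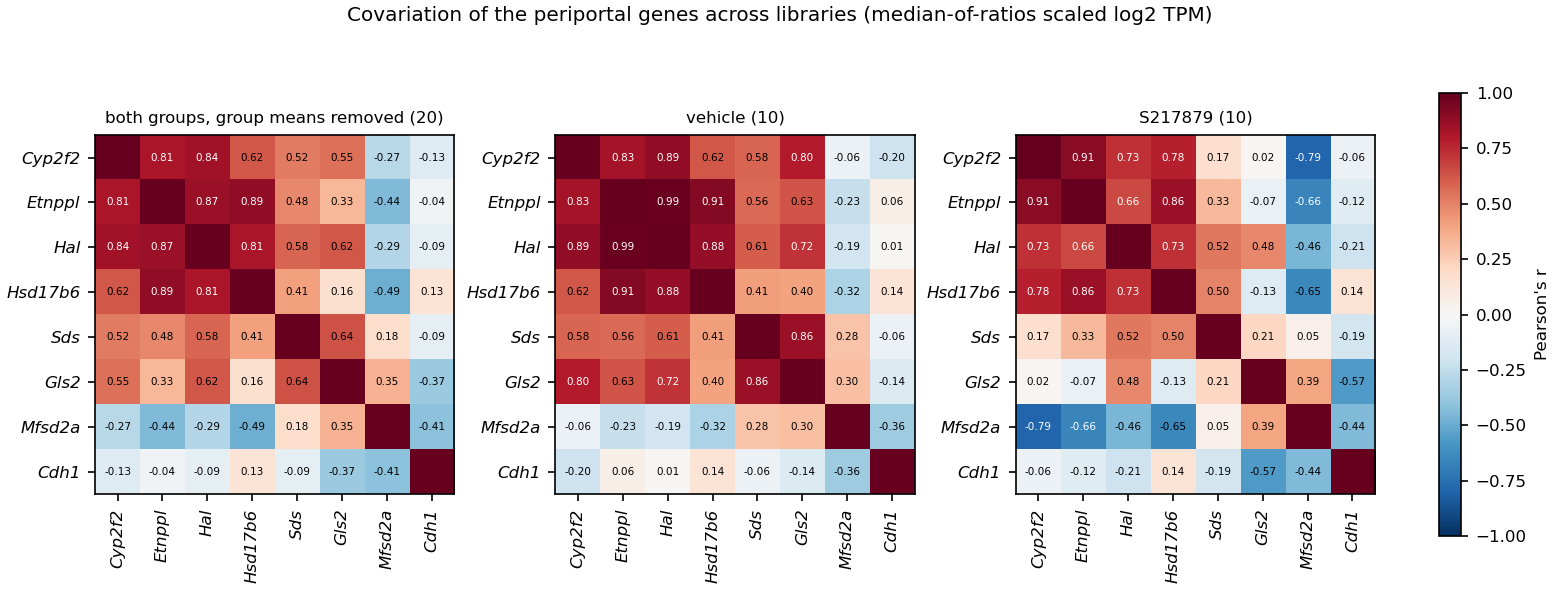
Pearson's r between the 8 periportal genes (both axes) over libraries, on log2 TPM after median-of-ratios scaling, for both groups with group means removed (20 libraries), vehicle (10) and S217879 (10), with the value in each cell. Cyp2f2, Etnppl, Hal and Hsd17b6 form the block of high r, with 0.89 the highest in the first panel, and Mfsd2a and Cdh1 lie outside it.

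For each of the 8, the genes of all those tested that followed it most closely within the groups were taken by the same r. For Cyp2f2 they were Cyp4v3, a fatty acid P450 (r = 0.90), and Ugt3a2, a glycosyltransferase (r = 0.87). Cyp4v3 had 161 ± 40.3 and 167 ± 14.5 TPM and was not called over all 20 libraries, so it followed Cyp2f2 between livers of a group but did not differ like it between groups. For Etnppl they were Cryl1, a sugar acid dehydrogenase (r = 0.94, with 21.003 ± 8.11 and 62.3 ± 7.86 TPM), and Cyp2a5 (r = 0.91). For Hsd17b6 they were Gsta2, a glutathione transferase (r = 0.92, with 35.0 ± 13.3 and 406 ± 66.3 TPM), and Adora1, an adenosine receptor (r = 0.90). For Hal they were Amdhd1, an enzyme of its own pathway (r = 0.91), and Cyp2d26 (r = 0.89).

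Closest to Sds were Ctnnbip1, an inhibitor of beta-catenin (r = 0.81), and Ifi27l2b (r = 0.76). Closest to Gls2 were Slc38a3, a glutamine transporter of hepatocytes (r = 0.79), and Qprt (r = 0.77). Slc38a3 had 534 ± 118 and 422 ± 57.9 TPM. It was not called as deposited but was called lower scaled and without vehicle replicates 6 and 7. Closest to Mfsd2a were Slc25a25, a mitochondrial carrier (r = 0.80), and Mrpl36 (r = 0.75), and among those closest to Cdh1 was Epn2 (r = 0.81). With Nqo1 the within-group r was 0.75 for Hsd17b6, 0.73 for Etnppl, 0.49 for Hal, 0.41 for Cyp2f2 and 0.28 for Sds. It was -0.05 for Gls2, -0.08 for Cdh1 and -0.36 for Mfsd2a.

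The livers of the vehicle group spread widely in the genes that rose. As deposited, vehicle replicate 6 was lowest for 6 of the 8 (all but Mfsd2a and Cdh1) and replicate 9 was highest for 5 (Cyp2f2, Etnppl, Hal, Sds and Gls2). After median-of-ratios scaling replicate 6 stayed lowest for Cyp2f2, Etnppl and Hal, and replicate 9 highest for the same 5. The share of TPM in the rRNA-type models went with lower values in the vehicle group, with r of -0.67 for Cyp2f2, -0.64 for Etnppl, -0.65 for Hal and -0.66 for Hsd17b6 over the 10 scaled vehicle libraries. Over the 10 S217879 libraries the signs were reversed, at 0.45, 0.37, 0.28 and 0.42. Vehicle replicates 6 and 7 had the highest shares of all (58.2% and 50.7%), and no r without them is given. Scaled Cyp2f2 was 193 TPM in replicate 6 but 394 TPM in replicate 7, near the vehicle median of 393 TPM. The part of RNA quality in this spread was not tested. Coefficients of variation of the scaled levels were 39.7% in vehicle and 29.0% in S217879 livers for Etnppl, 33.5% and 32.0% for Hsd17b6, 30.5% and 18.7% for Hal, 28.0% and 11.7% for Sds and 11.99% and 10.9% for Gls2. For Mfsd2a and Cdh1 the order was the other way, 18.5% and 25.9%, and 16.2% and 23.5%.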

How the data were processed

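Whole liver RNA of 20 mice (10 vehicle, 10 S217879) was profiled. Per the labels' protocols, an RNeasy lipid kit was used for extraction and a stranded Illumina kit with polyA capture for the libraries. The submitters' processing notes name GRCm38 as the build, and as tools STAR 2.5.2b, Trimmomatic 0.36, Subread 1.5.2 and featureCounts. Settings, annotation, strandedness of the counting and treatment of multi-mapped reads are not stated there. The deposited expression signal is in TPM made by the authors, with no read depth. Columns were matched to animals by number.

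Symbols and coordinates came from GENCODE M21 (48970 identifiers matched). Values were log2(TPM + 0.5), tested with limma 3.58.1 in R 4.3.3 (eBayes with trend and robust) over genes whose mean reached 1 TPM. Fold changes on that scale understate changes of low genes. Ratios were tested with scipy 1.17.1. Simulated data had the means and spread of the 13401 genes. Of genes changed by 0.5, 1 and 2 (log2), 62%, 94% and 100% were recovered, and 8 of 13201 unchanged genes were called. Scale shifts shared by the genes of a library were not simulated, so these figures do not give the rate of false calls in the real data. There the genes called lower ran from 1642 to 8576 across the processing alternatives.

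The 8 genes and the gene lists were chosen with earlier results of these data known, so list counts are descriptions. Named genes are the 8, 4 pericentral partners, Nqo1, of each list the 2 largest called rises and the 2 largest called falls, and for each of the 8 the 2 genes of highest within-group r. Some genes chosen by this rule are not reported here. Named after their values were seen were Uroc1, Amdhd1, Ftcd, Pck1, Cps1, Alb, Krt19, Sox9, Scgb3a2, Vcl, Gcgr and the overlapping genes. Alternatives were other pseudocounts, filters, scalings, weights and moderation, an exact Wilcoxon test per gene, and leaving out libraries.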

Additional observations from a re-analysis of the deposited data

How the results depend on the processing

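Across 33 alternatives, 5 of the 8 periportal genes were called higher in each and 2 or 3 lower. The range of the log2 difference was 1.93 to 2.33 for Cyp2f2, 1.62 to 2.01 for Etnppl, 0.95 to 1.36 for Hsd17b6, 0.55 to 0.90 for Hal, 0.52 to 0.78 for Sds, -0.90 to -0.63 for Mfsd2a and -1.05 to -0.79 for Cdh1, with a highest adjusted p of 0.0231 (Sds). Gls2 was called lower in 4: with array weights (-0.29, adjusted p = 0.0064), quantile normalization (-0.24, 0.0024), rescaling without the rRNA-type models (-0.30, 1.67e-04) and without vehicle replicates 6 and 7 (-0.30, 0.0115). The 4 zone ratios kept direction and call in all 23 alternatives run for them, with the log2 difference of Cdh1/Cdh2 between -0.45 and -0.34.

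The background moved far more. Genes called higher were 3561 with median-of-ratios scaling and 3536 with quantile normalization, against 813. Genes called lower, 3151 as deposited, were 8023 with array weights, 1642 with a mean of at least 5 TPM, 8576 after rescaling without the rRNA-type models and 7307 without vehicle replicates 6 and 7. Leaving out 1 library at a time gave 709 to 877 higher and 2637 to 5194 lower, the most without vehicle replicate 6. Of the 3964 calls as deposited, 3839 were made in the same direction with median-of-ratios scaling. No paired analysis was possible because every animal has a number of its own and the groups have none in common. Read depth is unknown, so no counting error could be given.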

Other observations

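Genes that set or respond to the zones were also read out. Of 12 tested genes of Wnt and zonation control 0 were higher and 5 lower (2 and 6 with median-of-ratios scaling, 0 and 10 of 13 without vehicle replicates 6 and 7). Axin2, a feedback inhibitor and target of Wnt signalling, fell from 4.08 ± 1.04 to 2.25 ± 0.480 TPM (limma, adjusted p = 9.38e-06), and Rnf43, which removes Wnt receptors, fell from 11.8 ± 2.64 to 7.70 ± 1.57 TPM. Of 12 tested genes of glucagon, cAMP and gluconeogenic control, which drive portal functions, 0 were higher and 1 lower (2 and 1 scaled, 0 and 9 without the 2 libraries). The one called was Ppargc1a, a coactivator of gluconeogenesis, with 3.53 ± 0.679 and 2.30 ± 0.540 TPM. Gcgr, the glucagon receptor, had 181 ± 38.5 and 184 ± 21.9 TPM and was not called as deposited, but was called higher with median-of-ratios scaling (log2 difference 0.17, adjusted p = 0.0039).

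Markers of other liver cells moved in both directions. Of 10 endothelial markers 3 were higher and 1 lower (8 and 1 scaled, 2 and 2 without the 2 libraries), summing to 94.3 to 195 TPM in vehicle and 159 to 211 TPM in S217879 livers. Lyve1, a hyaluronan receptor of sinusoids, rose from 10.95 ± 2.68 to 19.9 ± 3.33 TPM, and Vwf fell from 2.39 ± 0.411 to 1.53 ± 0.237 TPM. Of 10 macrophage markers 7 were lower (7 scaled, 8 without the 2 libraries), with sums of 503 to 1037 TPM in vehicle and 416 to 788 TPM in S217879 livers. Of 10 stellate cell markers 10 were lower (9 scaled, 10 without the 2 libraries), with sums of 285 to 529 TPM and 211 to 397 TPM. Their part in the levels of the periportal genes was not tested. Of 9 tested NRF2 targets 8 were higher (8 under both alternatives, with 1 lower without the 2 libraries), with a median log2 difference of 1.88, and Cbr3, a carbonyl reductase, had 8.25 ± 1.83 and 524 ± 149 TPM.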
